A study of Homo sapiens with 6 samples.

Results

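Transforming growth factor beta (TGF-beta), bone morphogenetic proteins (BMPs) and WNT proteins are secreted signals that cells use to instruct themselves and their neighbours. The genes TGFB2, BMP4, WNT5B, FZD2 and DKK1, which act at the outer end of these pathways, were taken by symbol from the deposited table, where each has 1 row, so that 5 of 414 listed genes are described. The table holds only genes that the authors had called as changed by more than 2-fold, and the place of a gene in it is therefore not a result of the comparison below.

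The cells were KLE, an established line from a human endometrial carcinoma, and their RNA was sequenced. There were 3 libraries of parental (wild-type) KLE cells and 3 libraries of KLE cells with a double knockout of LATS1 and LATS2, the kinases that phosphorylate and restrain YAP in the Hippo pathway. The knockout was made with CRISPR-Cas9 and puromycin selection, and clones were grown from single cells after dilution. The sources used here do not say whether the 3 knockout libraries came from 1 clone or several, or whether replicates were separate cultures, so the p-values measure only the spread between these libraries. No treatment is named in the labels of either group. Libraries are named by the numbers of their columns, which are 1 to 3 (the replicate numbers) for parental cells and 5 to 7 for LATS1/2-KO cells. Added up over the listed genes, the depth was 4064052, 3252765 and 3008692 counts in parental libraries 1, 2 and 3, and 1862422, 613161 and 1180727 in knockout libraries 5, 6 and 7. Neither LATS1 nor LATS2 is listed, and the loss of their transcripts was not analysed here.

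TGF-beta and BMP ligands bind pairs of serine/threonine kinase receptors, which phosphorylate SMAD proteins, and the SMADs then act on genes in the nucleus. WNT ligands bind Frizzled receptors. In the canonical branch this stabilises beta-catenin, which works with TCF/LEF factors, while other branches act on the cytoskeleton and on calcium. In the endometrium these signals take part in the remodelling of the tissue through the cycle. YAP, once free of LATS1/2, works with TEAD factors on genes in the nucleus.

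TGFB2 encodes a TGF-beta ligand (ENSG00000092969.12_6 in the table) and lies on the plus strand of chromosome 1 from 218346235 to 218444619, on the GRCh38 build in GENCODE version 29, as are all gene positions here. BMP4 encodes a BMP ligand (ENSG00000125378.16_6) and lies on the minus strand of chromosome 14 from 53949736 to 53958761. WNT5B encodes a WNT ligand of the mostly non-canonical kind (ENSG00000111186.13_4; chromosome 12, 1529891 to 1647243, plus strand). FZD2 encodes a Frizzled receptor for WNT ligands (ENSG00000180340.7_4; chromosome 17, 44557459 to 44559570, plus strand). DKK1 encodes Dickkopf-1, a secreted inhibitor that binds the WNT co-receptors LRP5 and LRP6 (ENSG00000107984.10_4; chromosome 10, 52314296 to 52318042, plus strand).

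The RefSeq table used here matched 4 of the 5 genes by symbol, all but FZD2. The 250 bases upstream of 3 of these starts are shown because they hold letters of motifs linked to the pathways named above. Capitals mark GGAATG or its reverse complement CATTCC (the TEAD motif), CTTTGA or TCAAAG (TCF/LEF) and CAGACA or TGTCTG (SMAD). Each is printed 5′ to 3′ on the strand of the gene, from GRCh38.p14.
DKK1, plus strand, chr10:52314031-52314280: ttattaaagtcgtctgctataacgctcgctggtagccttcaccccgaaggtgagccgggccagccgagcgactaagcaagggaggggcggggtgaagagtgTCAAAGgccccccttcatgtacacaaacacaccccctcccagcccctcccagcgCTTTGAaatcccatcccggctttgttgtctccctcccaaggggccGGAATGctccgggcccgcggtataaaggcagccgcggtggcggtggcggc
TGFB2, plus strand, chr1:218345086-218345335: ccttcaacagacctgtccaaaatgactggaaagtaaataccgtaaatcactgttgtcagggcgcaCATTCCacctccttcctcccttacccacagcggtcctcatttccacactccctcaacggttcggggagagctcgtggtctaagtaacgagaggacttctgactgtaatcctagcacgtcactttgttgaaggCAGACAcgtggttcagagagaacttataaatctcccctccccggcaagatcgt
BMP4, start 3, minus strand, chr14:53953396-53953645: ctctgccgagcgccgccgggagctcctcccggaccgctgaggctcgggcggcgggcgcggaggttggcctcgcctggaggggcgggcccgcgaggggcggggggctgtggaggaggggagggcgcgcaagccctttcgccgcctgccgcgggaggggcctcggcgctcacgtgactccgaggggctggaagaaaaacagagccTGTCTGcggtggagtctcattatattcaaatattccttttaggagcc

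The window of DKK1 held the TEAD letters at -50 to -45 from the start and the TCF/LEF letters at -95 to -90 and at -149 to -144. That of TGFB2 held the TEAD letters at -185 to -180 and the SMAD letters at -53 to -48. For TGFB2 and DKK1 the RefSeq start is upstream of the first base of the gene in GENCODE version 29. The RefSeq starts of BMP4 and WNT5B lie downstream of that first base, inside the gene, and the bases before it were not searched. In the window of BMP4 start 3 the SMAD letters lay at -47 to -42. None of the 3 motifs was found upstream of BMP4 starts 1 and 2 or of the 2 starts of WNT5B. Of all 35116 RefSeq upstream windows of this length, 11.9% held the TEAD letters, 11.2% the TCF/LEF letters and 13.6% the SMAD letters on either strand. A match of 6 letters is thus common and describes the sequence only. The motifs do not overlap each other in these windows.

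To compare libraries, each count was divided by a scale for its library, and the result is called a scaled count. Because genes that changed less than 2-fold are missing from the table, the scale between the groups was set by centring on 0 the gap that they leave in the log2 ratios. The sizes of the ratios below rest on this scale, and the other scales tried gave higher values, listed in the last section. The 2 ligands of the TGF-beta family and the WNT inhibitor were higher in LATS1/2-KO cells, TGFB2 by 23.0-fold, BMP4 by 7.29-fold and DKK1 by 5.32-fold in the mean scaled count of 3 against 3 libraries. FZD2 was higher by 3.17-fold. WNT5B was not, with a ratio of 1.04, because parental library 1 held far more WNT5B than the other parental libraries. Without that replicate the 5 ratios were 28.0 for TGFB2, 6.39 for BMP4, 5.36 for DKK1, 4.54 for FZD2 and 16.4 for WNT5B. In RNA from bulk cells, a change in the share of cells that make a transcript and a change in transcript per cell cannot be told apart.

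Across all 6 libraries, the quasi-likelihood test of edgeR called 4 of the 5 genes higher, that is, with an adjusted p-value under 0.05 and a log2 fold change above 1. Of all 414 listed genes, 28.7% were called higher and 41.5% lower by the same rule. Without parental library 1 all 5 genes were called higher, against 51.2% of the listed genes (45.9% were lower). The p-values were adjusted over the 414 listed genes, which the authors had chosen on libraries of this series, so a call here is not independent evidence of a change. Of 199 genes with at least 50 counts in all 6 libraries, 36 had a mean ratio within 2-fold when all libraries were used, and 0 without parental library 1 (to within 0.01 on the log2 scale). The ratios without parental library 1 thus carry the 2-fold limit of the table, and the calls made without it, that of WNT5B included, restate the choice of the listed genes. When the adjustment was made as if all 19969 protein-coding genes of the annotation had been tested, 2 of the 5, BMP4 and DKK1, were called with all 6 libraries and without parental library 1. Of the listed genes, 4.35% were called higher by this stricter rule with all 6 libraries, and 10.9% without parental library 1.

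DKK1 had the smallest p-value of the 5 with all 6 libraries, and BMP4 without parental library 1 (adjusted p = 0.000153 for BMP4 and 0.000255 for DKK1, edgeR). Its counts were 961, 874 and 569 in parental libraries 1, 2 and 3, and 4221, 1486 and 3416 in knockout libraries 5, 6 and 7. The scaled counts were 654, 704 and 572 in the parental libraries and 3163, 2991 and 4109 in the knockout libraries. All knockout libraries lay above all parental libraries, and the lowest of them was 4.25 times the highest parental library. The means were 643 ± 66.7 and 3421 ± 603 scaled counts (SD, n = 3 libraries in each group). The log2 fold change was 2.41, with a standard error (SE) of 0.18 and an adjusted p of 0.000446 (edgeR), and it stayed between 2.26 and 2.5 whichever library was left out. Knockout library 7 was the highest, and its 95% counting interval of 3973 to 4250 did not reach that of library 5, 3068 to 3259, so these libraries differed by more than counting error. Of the exon bases of DKK1, 212 of 2206 are shared with PRKG1-AS1 on the opposite strand. The sources used here do not state whether strand was used in counting, so reads from those bases cannot be told apart.

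BMP4 had the least spread among the knockout libraries. It was counted 123, 143 and 149 times in parental libraries 1, 2 and 3, and 1118, 403 and 742 times in knockout libraries 5, 6 and 7. Scaled, these are 83.7, 115 and 150 in the parental libraries and 838, 811 and 893 in the knockout libraries. The groups did not overlap, and the lowest knockout library was 5.41 times the highest parental library. The means were 116 ± 33.0 and 847 ± 41.6 scaled counts (SD, n = 3 each), and the log2 fold change was 2.87 (SE 0.26, adjusted p = 0.000747 from the same edgeR test). Parental library 1 was the lowest of the parental libraries here, at 0.632 times the mean of replicates 2 and 3. The counting intervals of the 3 knockout libraries overlapped (789 to 888, 734 to 894 and 830 to 959), so their differences were within counting error. The coefficient of variation was 4.91% in the knockout libraries and 28.4% in the parental libraries.

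TGFB2 went from a few counts per library to over 30. The counts were 11, 0 and 9 in the parental libraries and 132, 38 and 170 in knockout libraries 5, 6 and 7. Scaled, they were 7.49, 0 and 9.05 in the parental libraries and 98.9, 76.5 and 205 in the knockout libraries. Every knockout library lay above every parental library, by a factor of at least 8.45. The count of 0 in parental library 2 allows up to 2.42 scaled counts (3 counts), below the lower counting limits of 3.74 and 4.14 in replicates 1 and 3. The means were 5.51 ± 4.84 and 127 ± 68.4 scaled counts (SD, n = 3 each), and the log2 fold change was 4.50 (SE 1.33, adjusted p = 0.0253 from the same edgeR test). This was the largest fold change and the widest SE of the 4 genes called. Without knockout library 5, 6 or 7 the adjusted p-values were 0.054, 0.0503 and 0.0827 (edgeR), and TGFB2 was no longer called, with log2 fold changes of 4.65, 4.76 and 3.97. Of its exon bases, 1371 of 5151 are shared with TGFB2-OT1, an overlapping RNA on the same strand, and reads from these bases cannot be assigned to one or the other.

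FZD2 had 87, 38 and 21 counts in parental libraries 1, 2 and 3 and 183, 68 and 65 in knockout libraries 5, 6 and 7. The scaled counts were 59.2, 30.6 and 21.1 in the parental libraries and 137, 137 and 78.2 in the knockout libraries. The groups did not overlap, but the lowest knockout library, 7, was only 1.32 times parental library 1. Their counting intervals, 60.3 to 99.7 and 47.4 to 73.1, overlapped. With means of 37.0 ± 19.8 and 117 ± 33.9 scaled counts (SD, n = 3 each), the log2 fold change was 1.66 (SE 0.53, adjusted p = 0.0324 from the same edgeR test). It rose to 2.17 (SE 0.45, adjusted p = 0.00464) without parental library 1. FZD2 was not called without parental library 2, parental library 3, knockout library 5 or knockout library 6, where the adjusted p-values were 0.0893, 0.0749, 0.094 and 0.091. The log2 fold changes of FZD2 were then 1.54, 1.38, 1.53 and 1.54.

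WNT5B had 108, 4 and 0 counts in the parental libraries and 17, 23 and 17 in knockout libraries 5, 6 and 7. In scaled counts the parental libraries held 73.5, 3.22 and 0 and the knockout libraries 12.7, 46.3 and 20.5. Parental library 1 was thus the highest of all 6 libraries and parental libraries 2 and 3 the lowest, so that the knockout libraries lay between them and the groups overlapped. The means were 25.6 ± 41.5 and 26.5 ± 17.6 scaled counts (SD, n = 3 each), and the log2 fold change was 0.034 (SE 1.79, adjusted p = 0.986 from the same edgeR test). Without parental library 1 the log2 fold change was 3.84 (SE 1.25, adjusted p = 0.023), and all knockout libraries lay above parental libraries 2 and 3. Without parental library 2, parental library 3 or knockout library 6 it was -0.49, -0.55 and -0.63. The sign of the WNT5B value thus turned on any of these 3 libraries, and WNT5B was called only without parental library 1. With replicates 2 and 3 alone, the parental level itself rested on 4 counts in 2 libraries.

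In exact two-sided permutation tests of the mean log2(scaled count + 1) over the libraries, p was 0.1 for TGFB2, BMP4, FZD2 and DKK1 and 0.5 for WNT5B. The smallest p that 3 libraries against 3 allow is 0.1. Of the listed genes, 35.7% had all knockout libraries above all parental libraries, as did 4 of the 5 genes here, and 44.2% had all of them below. Without parental library 1 the knockout libraries lay above in all 5 genes and in 51.0% of the listed genes.

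**Figure D1:**
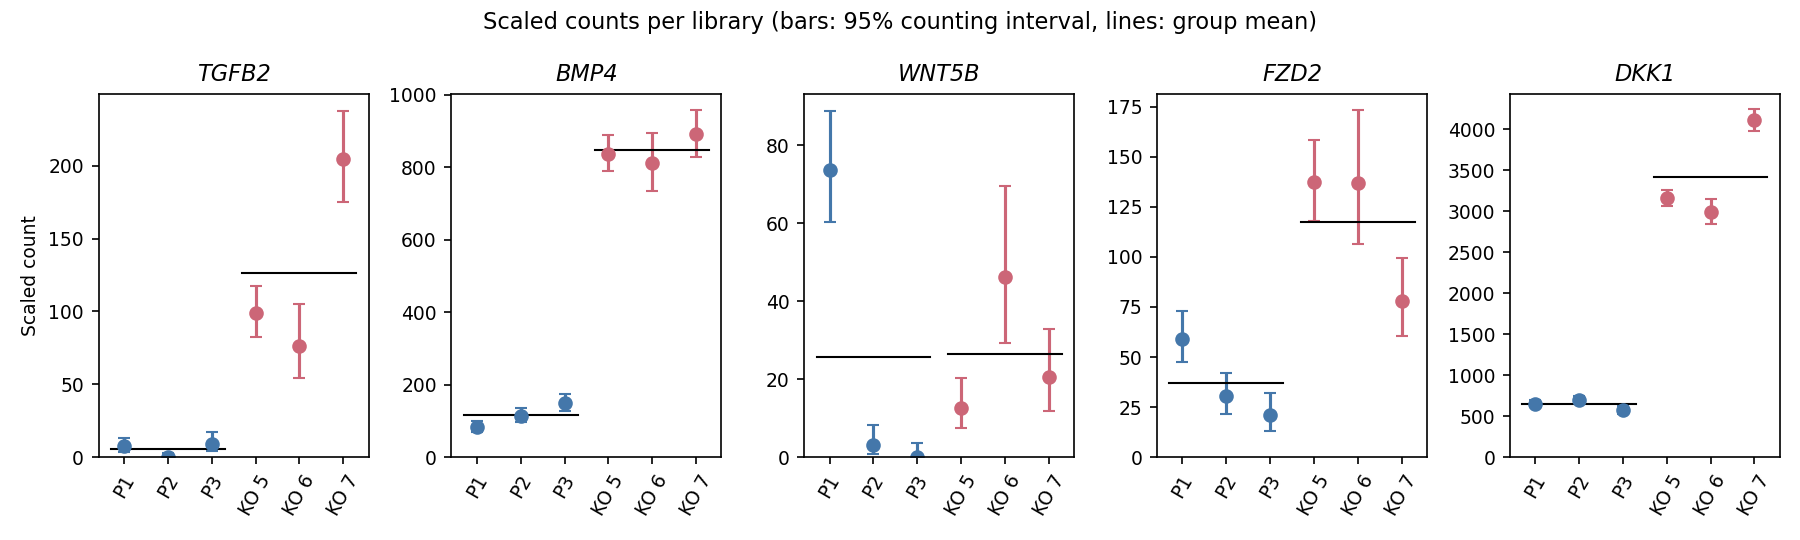
Scaled counts (y axis, linear from 0) of TGFB2, BMP4, WNT5B, FZD2 and DKK1 in each of the 6 libraries, parental libraries (P1 to P3, blue) and knockout libraries (KO 5 to KO 7, red), with the exact Poisson 95% interval of each count as bars and the group mean as a black line. In WNT5B, parental library 1 at 73.5 lies above all knockout libraries, while in the other 4 genes all knockout libraries lie above the parental libraries.

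**Figure D2:**
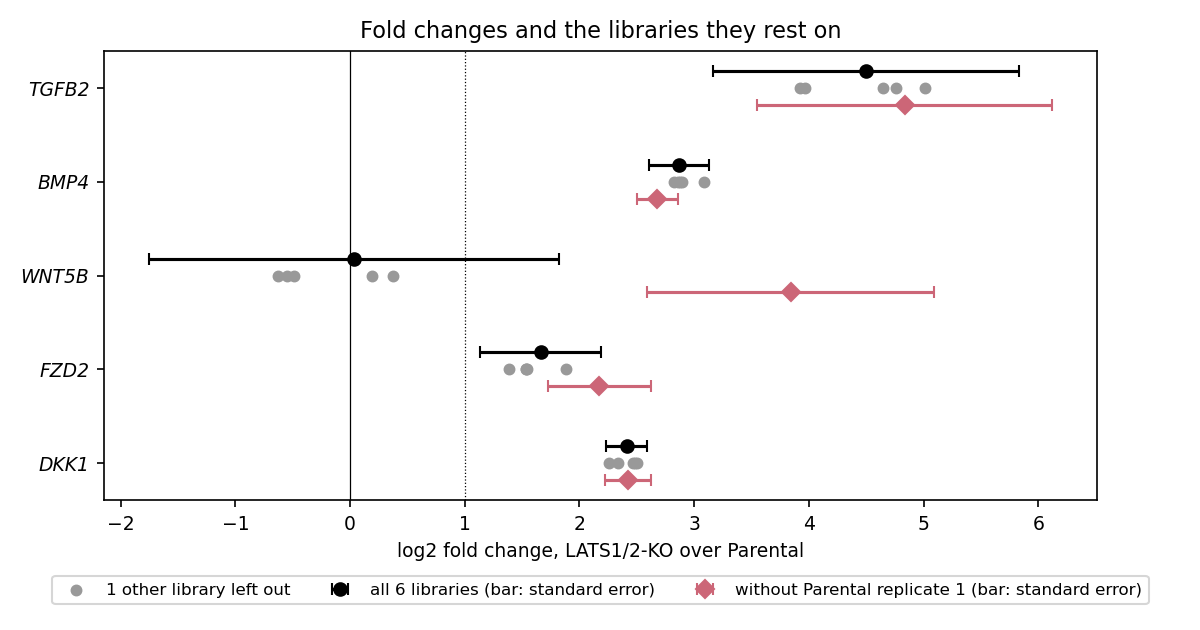
The log2 fold change of each gene (x axis, LATS1/2-KO over parental) with all 6 libraries (black, with standard error), without parental library 1 (red, with standard error) and with 1 other library left out (grey points). DKK1 stays between 2.26 and 2.5, whereas WNT5B moves from 0.034 to 3.84 when parental library 1 is left out. The dotted line marks the log2 fold change of 1 needed for a call.

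Per kilobase of exon, DKK1 had the highest mean level of the 5 genes in both groups, with 292 scaled counts per kilobase in parental and 1551 in LATS1/2-KO cells. BMP4 came next with 37.7 and 275 scaled counts per kilobase, then FZD2 with 17.5 and 55.6. In the parental cells WNT5B (5.94 scaled counts per kilobase) stood above TGFB2 (1.07) only through parental library 1, without which they had 0.374 and 0.878 scaled counts per kilobase. In LATS1/2-KO cells TGFB2 (24.6) stood above WNT5B (6.15). The ranges of FZD2 (37.0 to 64.9) and TGFB2 (14.8 to 39.7) in the knockout libraries overlapped, as did those of WNT5B (0 to 17.1) and TGFB2 (0 to 1.76) in the parental libraries. These neighbours in the order cannot be told apart by their spread. In the parental cells FZD2, which reached 28.0, also overlapped with BMP4 (27.2 to 48.6) and with WNT5B. DKK1 was above the other 4 in every library.

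Parental library 1 departed from the other parental libraries in many listed genes and not in WNT5B alone. Among the 323 genes that reached 50 counts in a parental library, 71 were over 4-fold higher in replicate 1 than in the mean of replicates 2 and 3 on the log2(scaled count + 1) scale, and 5 were over 4-fold lower. WNT5B had 45.6 times the mean scaled count of replicates 2 and 3 in replicate 1, and 33 of the 323 genes had a difference at least as large as that of WNT5B, which is counted among them. For FZD2 this ratio was 2.29, for TGFB2 1.66 and for DKK1 1.03. What set this library apart was not tested, and its part in the FZD2 and WNT5B results is shown by their values with and without it.

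**Figure D3:**
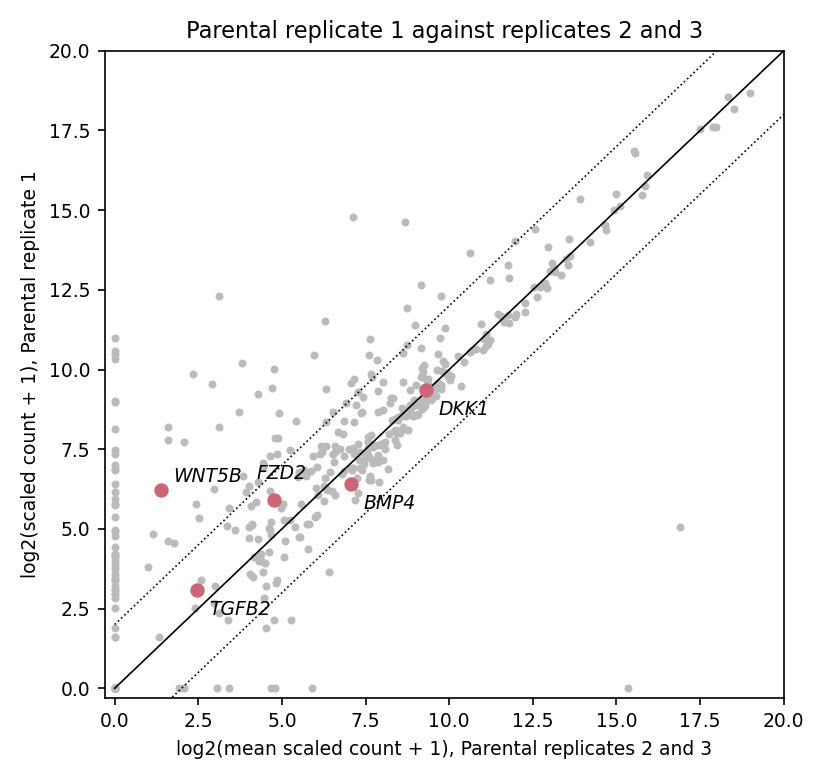
Each point is a listed gene, with log2(mean scaled count + 1) of parental libraries 2 and 3 on the x axis and log2(scaled count + 1) of parental library 1 on the y axis, the solid line marking equality and the dotted lines a 4-fold difference. DKK1 lies on the line and WNT5B far above it, with 73.5 scaled counts in replicate 1 against a mean of 1.61 in the others.

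Other genes of the same pathways were read from lists of 123 TGF-beta, BMP and WNT genes, of which 20 are in the table, the 5 above included. These lists were chosen with earlier results of these data known, so the counts below are not independent evidence of a change in these pathways. With all 6 libraries, 11 of the 20 were called higher, 4 of them among the 5 genes above, and 5 lower, where 28.7% of all 414 listed genes were called higher and 41.5% lower. The median log2 fold change was 1.30 for the 20 genes and -0.35 for all listed genes. It was 1.98 and 0.38 with TMM factors, and 2.34 and 0.66 with column sums. Without parental library 1, 15 were called higher and 5 lower (51.2% and 45.9% of all listed genes), with medians of 1.80 and 1.17. None of 19 receptors and SMADs of the TGF-beta family and none of 7 WNT target genes on these lists are in the table, so they were not analysed here.

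Besides the ligands, 5 extracellular regulators of TGF-beta and BMP signals were listed, 4 called higher and 1 lower with all 6 libraries (median log2 fold change 1.73). Among all 414 listed genes, 28.7% were called higher and 41.5% lower, and the median was -0.35. GREM1 (Gremlin-1), a secreted antagonist that binds BMP4, had 141, 90 and 80 counts in the parental libraries and 378, 171 and 205 in knockout libraries 5, 6 and 7. Its log2 fold change was 1.81 (SE 0.25, adjusted p = 0.00246, edgeR), and the groups did not overlap in scaled counts. FST (follistatin), which binds activins and also some BMPs, rose by 1.73 on the log2 scale (adjusted p = 0.00713), with means of 84.7 ± 33.8 in parental and 282 ± 11.7 scaled counts in LATS1/2-KO cells (SD, n = 3 each). THBS1 (thrombospondin-1), a matrix protein that can activate latent TGF-beta, rose by 1.75 (adjusted p = 0.000364), and CRIM1, a membrane protein that binds BMPs, rose by 1.36 (adjusted p = 0.00919). So a BMP ligand and several BMP-binding proteins were higher in the same libraries. Adjusted over all protein-coding genes with all 6 libraries, GREM1, FST and CRIM1 were not called (adjusted p = 0.119, 0.344 and 0.443, edgeR). THBS1 was still called (adjusted p = 0.0176), and FURIN was not (adjusted p = 0.172). FURIN, a protease that cleaves the precursors of both ligand families, had a log2 fold change of -1.30 (adjusted p = 0.00357) and was called lower on the gap scale only. It was -0.63 with TMM factors, -0.77 with median-of-ratios factors and -0.25 with column sums, short of 2-fold in each. These other scales were set over the listed genes alone and do not allow for the missing genes within 2-fold. FURIN was counted in every library. It had 1222, 873 and 550 counts in the parental libraries and 396, 146 and 214 in the knockout libraries.

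Of the genes known to respond to TGF-beta, 5 were listed, and 3 of them were called lower and 0 higher with all 6 libraries (median log2 fold change -1.04). Beside them, 41.5% of all 414 listed genes were called lower and 28.7% higher. Without parental library 1, 2 of the 5 were called higher and 3 lower, beside 51.2% and 45.9% of all listed genes. CDKN2B, an inhibitor of cyclin-dependent kinases that TGF-beta induces in epithelial cells, had 776, 642 and 466 counts in the parental libraries and 121, 94 and 183 in knockout libraries 5, 6 and 7. It fell by 1.60 on the log2 scale (SE 0.36, adjusted p = 0.0106, edgeR). TGFBI, a matrix protein, fell by 1.04 (adjusted p = 0.00246), and the gelatinase MMP2 fell by 1.29 (adjusted p = 0.00818). Without knockout library 6 the log2 fold change of TGFBI was -0.92, short of 2-fold. Adjusted over all protein-coding genes with all 6 libraries, CDKN2B, TGFBI and MMP2 were not called (adjusted p = 0.513, 0.119 and 0.395, edgeR). FN1 (fibronectin) had 2924, 277 and 170 counts in the parental libraries against 1112, 361 and 530 in the knockout libraries. Its log2 fold change was -0.12 with all 6 libraries and 1.89 without parental library 1, where FN1 was called higher (adjusted p = 0.000568, edgeR). With TMM factors in place of the gap scale, the log2 fold changes of CDKN2B, TGFBI and MMP2 were -0.93, -0.37 and -0.62, none of them called, and that of FN1 was 0.59. With median-of-ratios factors CDKN2B was still called lower (-1.07, adjusted p = 0.0485, edgeR), while TGFBI (-0.53) and MMP2 (-0.75) were not called. With column sums CDKN2B (-0.54), TGFBI (-0.00051) and MMP2 (-0.23) were not called. As said for FURIN, these other scales do not allow for the genes within 2-fold that the table lacks.

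On the WNT side, 1 of 16 ligands, 1 of 15 receptors and 1 of 12 secreted inhibitors on the lists are in the table, namely WNT5B, FZD2 and DKK1. Of 5 listed genes for WNT signal transduction and co-repression, 3 were called higher and 1 lower with all 6 libraries. Over all 414 listed genes the shares called higher and lower were 28.7% and 41.5%. TLE4, a Groucho-type co-repressor that binds TCF/LEF factors, had 79, 57 and 17 counts in the parental libraries and 247, 79 and 179 in knockout libraries 5, 6 and 7. Its log2 fold change was 2.25 (SE 0.50, adjusted p = 0.01, edgeR). Its paralogue TLE1 had 226, 30 and 24 against 84, 39 and 68 counts, with a log2 fold change of 0.14 (adjusted p = 0.897) and of 1.62 without parental library 1 (adjusted p = 0.00922). NXN (nucleoredoxin), which binds Dishevelled, rose by 1.24 on the log2 scale (adjusted p = 0.0353), and PLCB1, a phospholipase of the calcium branch, rose by 2.10 (adjusted p = 0.00279). NXN was called with all 6 libraries and without parental library 1, but not with any other library left out (log2 fold change from 0.97 to 1.33, adjusted p from 0.065 to 0.102). CXXC5, an inhibitor that also binds Dishevelled, had few counts in LATS1/2-KO cells, with 589, 51 and 17 counts in the parental libraries against 3, 4 and 0. The fall of CXXC5 was 5.57 on the log2 scale (SE 1.84, adjusted p = 0.0364) with all 6 libraries. Without parental library 1, CXXC5 fell by 3.22 (adjusted p = 0.0345). With TMM factors the log2 fold change of CXXC5 was -4.89 (adjusted p = 0.0572, edgeR) and CXXC5 was not called. CXXC5 was called with median-of-ratios factors (-4.91, adjusted p = 0.0479) but not with column sums (-4.47, adjusted p = 0.0976). Nor was CXXC5 called without knockout library 5, 6 or 7 (adjusted p = 0.108, 0.0594 and 0.084). Its log2 fold changes were then -5.33, -6.82 and -4.96. Adjusted over all protein-coding genes with all 6 libraries, TLE4 (adjusted p = 0.483, edgeR), PLCB1 (adjusted p = 0.135), NXN and CXXC5 were not called.

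**Figure D4:**
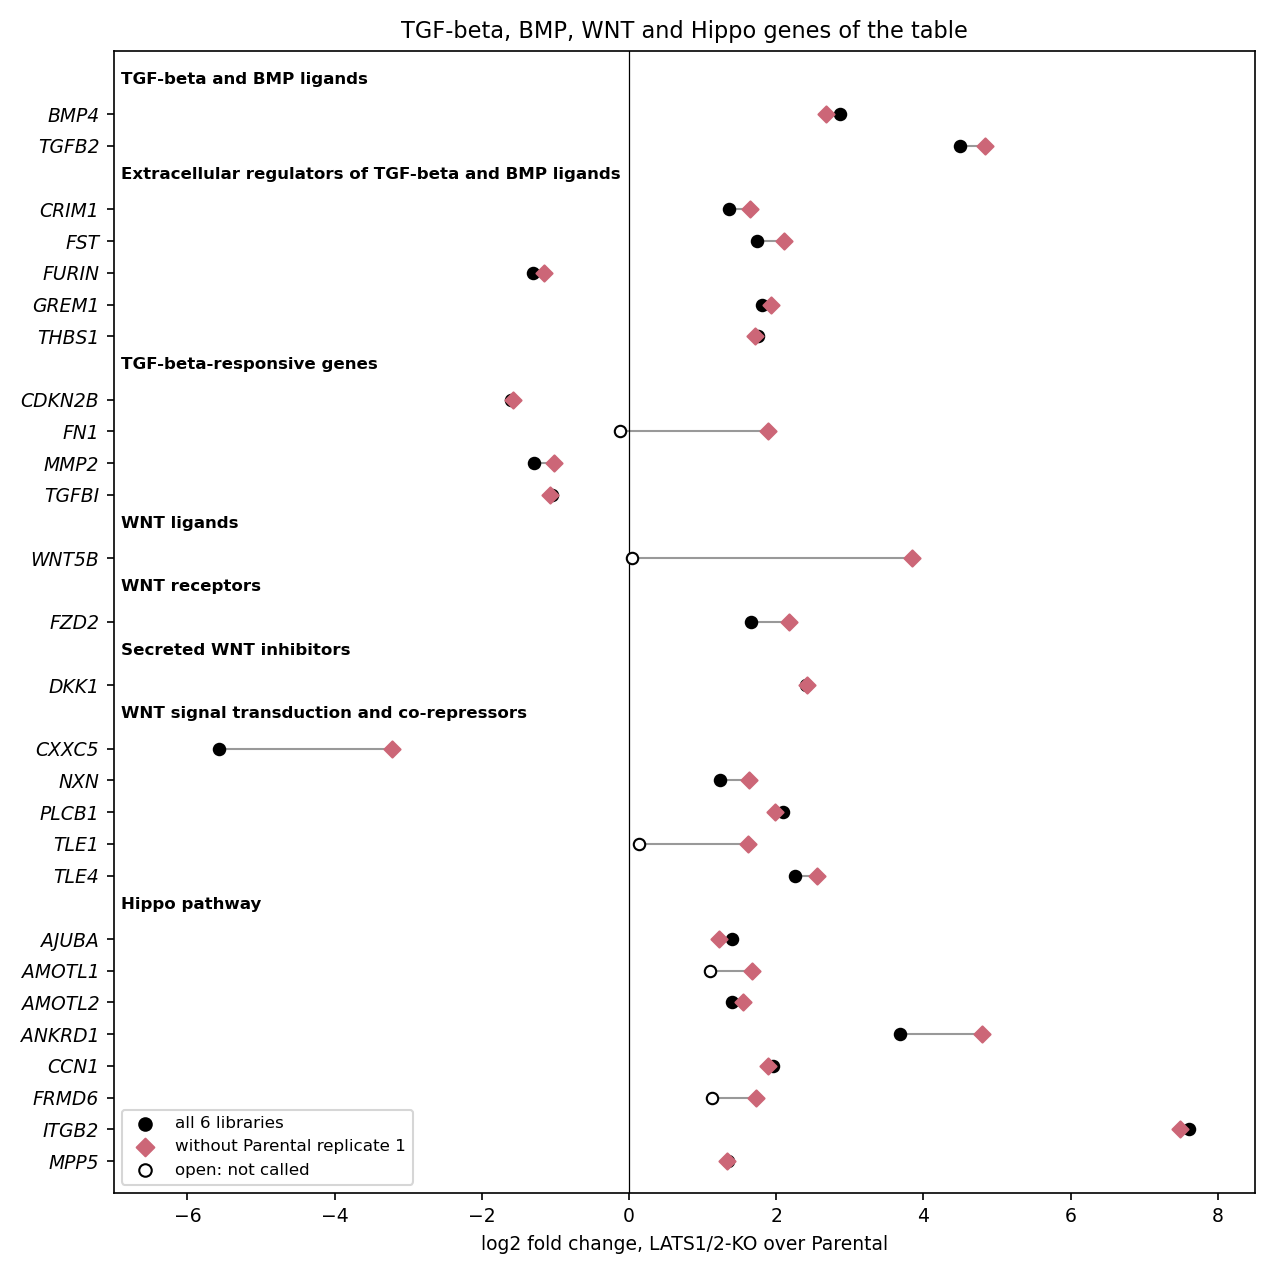
The log2 fold change (x axis, LATS1/2-KO over parental) of 27 of the listed genes from the TGF-beta, BMP, WNT and Hippo lists, with all 6 libraries (circles) and without parental library 1 (diamonds), filled where called. The lines between the symbols are longest for WNT5B, CXXC5, FN1, TLE1 and ANKRD1, the 5 genes over 4-fold higher in parental library 1 than in replicates 2 and 3. The value of ITGB2, which has 0 counts in all parental libraries, depends on the small count that the fit adds.

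Of the Hippo list, 8 of 18 genes are in the table, and 6 were called higher and 0 lower with all 6 libraries, beside 28.7% and 41.5% of all listed genes. This list too was chosen with earlier results of these data known, so its counts are not independent evidence. The median log2 fold change of the 8 genes was 1.40. ITGB2 was at 0 in the parental libraries, and its lower bound was 9.23-fold (3 counts in each parental library). That bound lies above the median, so setting ITGB2 to it could not change the median. CCN1, a secreted matrix protein and YAP/TEAD target, had 585, 603 and 439 counts in the parental libraries and 2227, 873 and 1432 in the knockout libraries, a log2 fold change of 1.96 (adjusted p = 0.000364, edgeR). The angiomotin-family gene AMOTL2 rose by 1.40 (adjusted p = 0.00652), while its relative AMOTL1 had a log2 fold change of 1.09 (adjusted p = 0.0865) with all 6 libraries and of 1.67 without parental library 1. Adjusted over all protein-coding genes with all 6 libraries, CCN1 was called (adjusted p = 0.0176, edgeR) and AMOTL2 was not (adjusted p = 0.315).

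The listed genes whose pattern over the 6 libraries was most like that of each gene were found by Pearson's r of log2(scaled count + 1), taken over genes whose mean count was 50 or more. These values describe 6 libraries in 2 groups and share those libraries. For DKK1 they were EFEMP1, NDFIP2 and PSG2 (r from 0.996 to 0.998), and for BMP4 they were PLK2, SNAPC1 and a gene without a symbol, ENSG00000286134.2_4 (r from 0.991 to 0.996). PSG2 had 0 counts in every parental library and 151, 58 and 158 in knockout libraries 5, 6 and 7. TGFB2 was most like LINC02104, LIFR and PPP1R15A (r from 0.960 to 0.988), which had their lowest scaled counts in parental library 2, as TGFB2 did. FZD2 was most like FADS3, ANKHD1 and MAMDC2 (r from 0.955 to 0.967). WNT5B was most like ENPP1, FBLIM1 and LIMA1 (r from 0.970 to 0.977). In scaled counts ENPP1 and LIMA1 were highest in parental library 1, as WNT5B was, and FBLIM1 in knockout library 6. ENPP1 had 310, 8 and 0 counts in the parental libraries and 16, 25 and 36 in the knockout libraries. Likeness is not particular to these few, since 77 of 313 candidate genes reached an r above 0.9 with DKK1 and 66 of 313 with BMP4, against 20 of 314 with WNT5B.

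The labelled cell type was read against its markers. Of 9 epithelial markers, 5 are in the table, namely KRT17, KRT19, KRT14, FOLR1 and MUC16, all counted in every library. KRT17, the most abundant, had between 116774 and 621650 counts per library, and MUC16 had between 13 and 349. With all 6 libraries 4 of the 5 were called lower in LATS1/2-KO cells, beside 41.5% of all listed genes, and FOLR1 had a log2 fold change of -0.94. With TMM factors KRT14 (-1.31) and MUC16 (-2.43) were still called lower, while KRT17 (-0.40) and KRT19 (-0.43) were not called. With column sums MUC16 (-2.03) was still called lower, KRT14 (-0.89) was short of 2-fold, and the values of KRT17 (0.0027) and FOLR1 (0.12) had the other sign. Neither of these scales allows for the missing genes within 2-fold. Without parental library 3 or knockout library 7, KRT17 was short of 2-fold. Adjusted over all protein-coding genes with all 6 libraries, none of the 5 markers was called (adjusted p from 0.0825 to 0.149, edgeR). Their summed scaled counts were 639392, 764157 and 824294 in the parental libraries and 396088, 359140 and 340609 in knockout libraries 5, 6 and 7. The part of this shift in the results above was not tested. None of 6 fibroblast, 4 immune and 4 endothelial markers are in the table, so their levels were not analysed here.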

How the data were processed

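Total RNA from both groups of KLE cells was primed with oligo-dT, and both ends of the cDNA fragments were read on a NovaSeq machine. The submitters' processing notes name cutadapt, HISAT2, StringTie and DESeq2 and the build hg19, without roles or versions. The authors deposited whole-number counts per gene and library, not normalized, for the 414 genes they had called. Not used were 6 further per-sample columns, named TPM, and 3 columns that hold the authors' own comparison (fold change and its p-values).

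Within each group, libraries were scaled by the median ratio to the geometric mean of the genes that reached 50 counts throughout the group. Because the table lacks genes within 2-fold, the log2 ratios of parental libraries 2 and 3 to LATS1/2-KO cells leave a gap, 2.00 wide over 199 genes, which was centred on 0 to set the scale between groups (next widest gap 0.049, gaps sought between the 10th and 90th percentiles). The overall level of the fold changes thus rests on the authors' 2-fold limit. Genes were tested by the quasi-likelihood functions of edgeR 4.0.16 (R 4.3.3), with no covariates and Benjamini-Hochberg adjustment over the 414 genes. The SE is the absolute log2 fold change divided by the square root of F. Calls needed an adjusted p below 0.05 and a log2 fold change beyond 1 either way. The procedure was tested on simulated data in which no library departed from the others of its group, unlike parental library 1 here. Counting intervals are exact Poisson intervals and, like the limit of 3 counts for a count of 0, cover counting error only.

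Named genes were the 5 genes, all listed genes of the pathway lists and, for each of the 5, the 3 listed genes most like it. The values of 1 listed pathway gene are not reported here, although the counts over the lists include it. The genes, lists and tests were chosen with earlier results of these data known, and the paper's supplement, which holds the same counts, had been read. The motifs were chosen after the data had been seen. Alternatives were each library left out, TMM, median-of-ratios factors, column sums, at least 10 counts in every library, DESeq2 1.42.0, and adjustment over 19969 protein-coding genes of GENCODE version 29.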

Additional observations from a re-analysis of the deposited data

How the results depend on the processing

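No paired analysis was possible because the numbers of the LATS1/2-KO columns (5 to 7) are not those of the replicates in the labels. When any 1 library was omitted, the log2 fold change lay between 3.92 and 5.01 for TGFB2, 2.68 and 3.09 for BMP4, -0.63 and 3.84 for WNT5B, 1.38 and 2.17 for FZD2, and 2.26 and 2.5 for DKK1. Over the same fits, 101 to 212 listed genes were called higher and 140 to 190 lower, against 119 and 172 with all 6 libraries, and the 212 higher calls came without parental library 1. With TMM factors, 139 genes were called higher and 60 lower, with median-of-ratios factors 141 and 90, and with column sums 142 and 43. Of the calls, 69.8%, 61.0% and 76.8% were then higher, against 40.9% on the gap scale, and the log2 scale of LATS1/2-KO over parental libraries moved by -0.66, -0.52 and -1.05, so that fold changes came out higher. These scales were set over the listed genes alone and, unlike the gap scale, do not allow for the missing genes within 2-fold. The log2 fold changes under TMM were 5.18 for TGFB2, 3.52 for BMP4, 0.72 for WNT5B, 2.33 for FZD2 and 3.09 for DKK1. With median-of-ratios factors they were 5.06 for TGFB2, 3.37 for BMP4, 0.71 for WNT5B, 2.22 for FZD2 and 2.92 for DKK1. Under column sums they were 5.56 for TGFB2, 3.93 for BMP4, 1.11 for WNT5B, 2.71 for FZD2 and 3.45 for DKK1. Adjusted over all protein-coding genes, 18 genes were called higher and 14 lower. TGFB2 (log2 fold change 4.50) and FZD2 (1.66) then both had an adjusted p of 1 (edgeR) and were not called. A minimum of 10 counts in every library removed TGFB2 and WNT5B. The next alternatives, all without parental library 1, were chosen after seeing the data. The same adjustment called 45 genes higher and 57 lower, and TGFB2 (4.83, adjusted p = 0.518), WNT5B (3.84, adjusted p = 1) and FZD2 (2.17, adjusted p = 0.224) were not called (edgeR). TMM then called 98 genes lower, against 190. The cause of these changes was not tested. Depth limits the parental levels of TGFB2 and WNT5B, which had 0 counts in 1 parental library each.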
